A study of Mus musculus with 30 samples.

Results

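Mouse embryonic stem (ES) cells that lack Jarid2 were compared between day 4 and day 6 after withdrawal of LIF, the interval in which this line gained primitive streak and mesendoderm genes. The members are the 10 arrays labelled Jmj (-/-) at these days, 5 at day 4 and 5 at day 6, of 30 arrays in all. The arrays were taken by their labels of genotype and day, and the interval was picked with earlier results of these data known. The study followed this null line beside a line labelled wild type, whose Jmj gene is flanked by loxP sites but present (Fl/Fl), at days 0, 2, 4, 6 and 8. Jmj is the former symbol of Jarid2. Fl/Fl cells gave 2 arrays per day, and their days 2, 4 and 6 serve here for comparison. Every group had the same treatment, removal of LIF, the cytokine that keeps mouse ES cells undifferentiated. The labels call the replicates biological but do not say whether they came from separate cultures or clones. A p-value here therefore measures only the spread between arrays, which the main fit pools over the groups of all 30 arrays.

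In the embryo, the primitive streak is the site where epiblast cells leave the epithelium and become mesoderm or definitive endoderm. Its cells answer Nodal, Wnt, BMP and FGF signals and switch on transcription factors such as Eomes, Mixl1 and Gsc, and mesendoderm is the name for cells that carry genes of both germ layers. Pou5f1 (Oct4), the central pluripotency factor, stays on in the early streak and is lost later, whereas Sox2 is lost earlier outside the neural lineage. Jarid2 is an accessory subunit of PRC2, the complex that places the repressive methyl mark on lysine 27 of histone H3.

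Values are linear array intensities given as whole numbers, and 18194 genes were measured with 1 probe set each. Changes are differences of log2(intensity + 4), so that fold changes are understated for weakly expressed genes. Each probe set has its own floor, in many cases a single-digit intensity. The 10 arrays had mean intensities of 349 to 362 at day 4 and 351 to 359 at day 6, and replicates correlated across genes at r = 0.983 to 0.997. In bulk RNA, fewer cells with a transcript and less transcript per cell cannot be told apart. The 5 null replicates were not alike in Eif2s3y, a Y-linked gene. At both days replicates 3 to 5 had intensities of 594 to 850, replicate 1 had 217 or 218, and replicate 2 had 12 or 13, near the floor. Meg3, an imprinted RNA, followed the same split, at 21 to 88, at 1227 and 1221, and at 340 and 287, and the ratio of 3' to 5' actin signal was 1.29 to 1.38 in replicates 3 to 5 against 1.54 to 1.62 in the other two. Fl/Fl arrays of days 2, 4 and 6 had Eif2s3y at 157 to 234, Meg3 at 653 to 1393 and an actin ratio of 1.48 to 1.78. Null replicate 1, 1 array per day, lay within these Fl/Fl ranges in each measure. No Fl/Fl array was like null replicates 3 to 5 in these. Genotype and this kind of array therefore cannot be told apart in the comparisons of null with Fl/Fl cells, which include those replicates. Same-numbered replicates deviated together from their day means. Named genes (defined at the end) that lose their call when the replicate number is a block are therefore given with that value. Other genes carry no such value, and list counts that dropped under the block are given with the block count.

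Jarid2 itself was measured in every null array. Its intensities were 1470, 1383, 1257, 1317 and 1275 in replicates 1 to 5 at day 4, and 1206, 1191, 781, 927 and 926 at day 6. The deletion leaves this signal uninformative about the labels, because the position of the probes relative to the deleted part is not known from the labels, and the arrays are therefore called by their labels. The change of -0.43 on the log2 scale (SE 0.18) did not pass the test (limma adjusted p = 0.139), although it did with the replicate number as a block (limma adjusted p = 0.0364). Day 6 lay below day 4 in all 5 replicates and the groups did not overlap.

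Between day 4 and day 6, 2358 of 18194 genes (13%) passed the test in null cells (limma, Benjamini-Hochberg adjusted p under 0.05). Of these, 1237 rose (6.8% of all genes) and 1121 fell (6.16%). These shares are the background for every count of list members below. With the replicate number as a block 1250 genes rose and 1250 fell. The large changes were mostly rises: of 792 genes that changed at least 2-fold, 558 rose and 234 fell, and at 8-fold or more, 38 rose and 8 fell. With each array centred on the median of its expressed genes the split became 1125 rises and 1813 falls, since that scaling moved the median gene by -0.10. The day 4 and day 6 arrays did not overlap for 1860 genes (10.2%). In all, 8020 genes stayed under an intensity of 20 in all 10 arrays, where rounding leaves little room to see a change.

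Mixl1, a homeodomain factor of the streak, had the largest rise of the named genes. Its intensity was 6, 27, 5, 5 and 6 in the null replicates 1 to 5 at day 4, and 5127, 3095, 2001, 1312 and 1970 at day 6. Every day 4 array was at or near the floor and every day 6 array was far above it. The log2 change was 7.65 (SE 0.61, limma adjusted p = 5.3e-08), and the exact permutation test of the 5 against 5 arrays (two-sided) gave p = 0.00794, the smallest that 252 assignments allow. That test treats the arrays as exchangeable and ignores that same-numbered replicates deviated together. In Fl/Fl cells Mixl1 was at 5 in both day 2 arrays and had already reached 1964 and 2110 at day 4 and 1843 and 1658 at day 6. The onset of Mixl1 therefore lay between days 2 and 4 in Fl/Fl cells and between days 4 and 6 in null cells.

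Lhx1, a LIM homeodomain factor of the anterior streak and node, was at 7 in all 5 null arrays at day 4. It reached 4360, 2489, 905, 525 and 617 in replicates 1 to 5 at day 6, a log2 change of 6.85 (SE 0.76, limma adjusted p = 2.5e-06). Sp5, a transcription factor and direct Wnt target, read 7, 37, 93, 61 and 83 at day 4 and 1259, 867, 731, 800 and 902 at day 6 (log2 change 4.24, SE 0.43, limma adjusted p = 8.9e-07). Replicate 1 was lowest at day 4 and highest at day 6 for Sp5. Evx1, a homeodomain factor of the posterior streak, went from 5 or 6 in every day 4 array to 276, 218, 101, 115 and 101 (log2 change 4.05, SE 0.33, limma adjusted p = 7.4e-08).

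Eomes, a T-box factor that acts upstream of mesendoderm genes, was on before Mixl1. Its intensity in null cells was 48 to 68 at day 2, and 464, 755, 305, 220 and 198 in replicates 1 to 5 at day 4. It then reached 5060, 3168, 1198, 1374 and 1180 at day 6. The groups did not overlap, and the log2 change of 2.53 (SE 0.56) passed the test (limma adjusted p = 0.0034). So Eomes had left its day 2 level at day 4 in all 5 arrays, whereas Mixl1, Lhx1 and Evx1 had not, apart from Mixl1 in replicate 2.

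**Figure D1:**
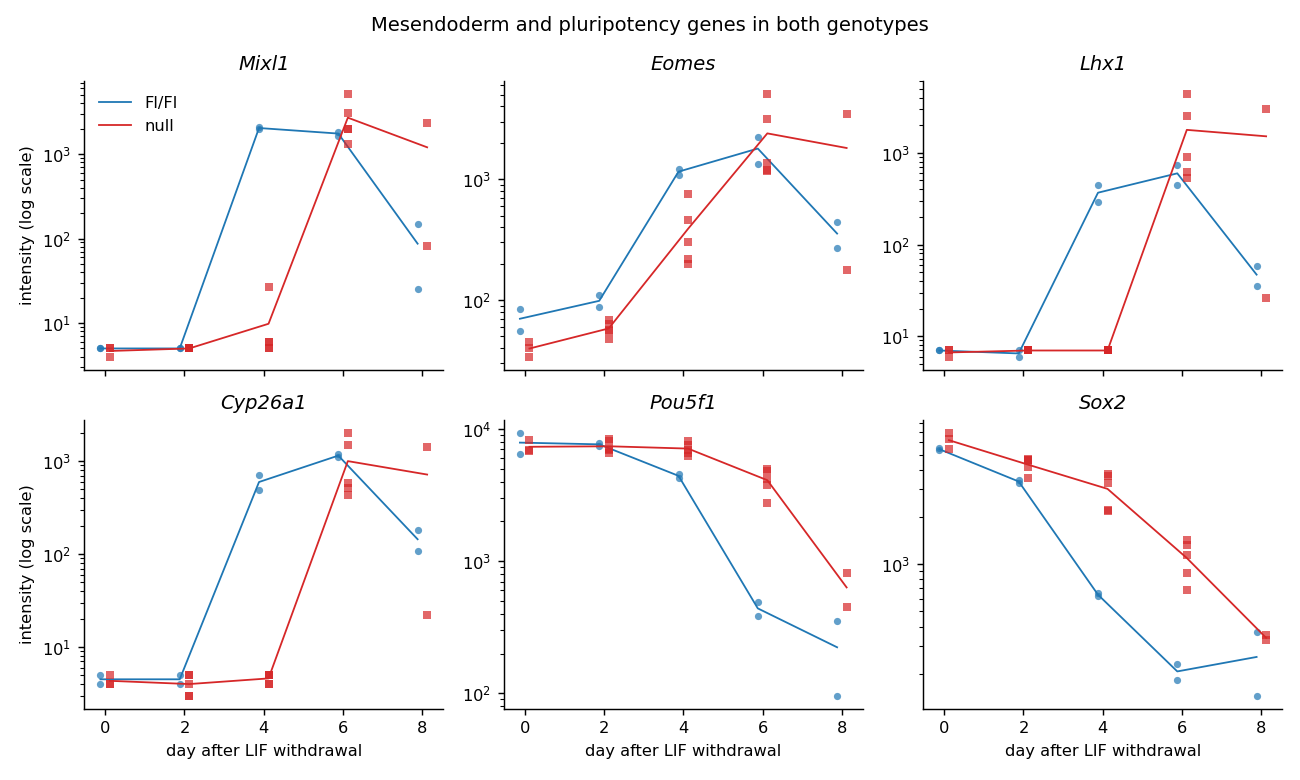
Intensity (log scale) of 6 genes against the day after LIF withdrawal, with points for single arrays and lines through the group means, in Fl/Fl cells (blue, 2 arrays per day) and null cells (red, 5 arrays each at days 4 and 6). Mixl1 in null cells sits between 5 and 27 at day 4 and between 1312 and 5127 at day 6, while Pou5f1 in the same day 6 arrays sits between 2737 and 4981.

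Gsc, a homeodomain repressor of the anterior streak, read 6, 9, 6, 6 and 6 in null replicates 1 to 5 at day 4 and 472, 376, 65, 39 and 55 at day 6 (log2 change 3.58, SE 0.59, limma adjusted p = 0.00024). Snai1, which represses E-cadherin when streak cells leave the epithelium, read 18, 26, 9, 16 and 9 and then 720, 345, 63, 106 and 98 (log2 change 3.28, SE 0.51, limma adjusted p = 0.00013). For both genes replicates 1 and 2 were several-fold above replicates 3 to 5 at day 6, yet no day 6 array overlapped day 4. Mesp1, a factor of nascent cardiac mesoderm, was at 5 in every day 4 array and at 292, 11, 23, 19 and 18 at day 6. Its log2 change of 2.00 passed the test (limma adjusted p = 0.009) but not with the replicate number as a block (limma adjusted p = 0.177), and most of the level came from replicate 1. Cdx2, a posterior and trophoblast factor, rose by 0.75 on the log2 scale (limma adjusted p = 0.0097, and 0.189 in replicates 3 to 5 alone), from 10 or 11 at day 4 to between 15 and 31 at day 6.

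In all, 9 of the 18 measured factors of the primitive streak and nascent mesoderm list rose and 0 fell (10 and 0 at an unadjusted limma p under 0.05, 8 and 0 with the replicate block), with a median log2 change of 0.98 against 0 over all genes. The 9 were Mixl1, Lhx1, Sp5, Evx1, Gsc, Snai1, Eomes, Mesp1 and Cdx2. Among the others, Tbx3, which serves both naive pluripotency and mesendoderm, read 36, 34, 91, 67 and 60 at day 4 and 293, 276, 76, 60 and 99 at day 6, so that it was several-fold higher in replicates 1 and 2 and moved little in the others (log2 change 1.21, limma adjusted p = 0.067). It passed without replicate 3 of day 4 (limma adjusted p = 0.0489) or replicate 3 or 4 of day 6 (0.0474 and 0.0262). The remaining 8 stayed under 20 in all 10 arrays. They were Tbx6, Msgn1 and Mesp2 of the presomitic mesoderm, Cdx1 and Cdx4, Foxc1 and Foxc2 of the paraxial mesoderm, and Hoxb1. Tbx6, Msgn1 and Mesp2 each had their highest day 6 value in replicate 1, at 9, 8 and 16. Brachyury (T) was not analysed here.

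Of the 17 genes that rose in the streak, endoderm and Apela lists, 11 had a promoter (250 bases before to 50 after the start) in the RefSeq table of assembly GRCm38.p6. Each was searched on both strands for AGGTGTGA (T-box factors), CTTTGATC and the CTTTGAT inside it (TCF and LEF factors of the Wnt pathway), AATCCACA and AATACACA (FOXH1, a Nodal effector) and TAATCC (Gsc and Otx2). Only Sp5 and Mesp1 held a match, and they are printed 5′ to 3′ along the gene, with the matches in capitals. The Sp5 promoter lies at chr2:70474673-70474972 on the + strand and the Mesp1 promoter at chr7:79793541-79793840 on the - strand.
Sp5: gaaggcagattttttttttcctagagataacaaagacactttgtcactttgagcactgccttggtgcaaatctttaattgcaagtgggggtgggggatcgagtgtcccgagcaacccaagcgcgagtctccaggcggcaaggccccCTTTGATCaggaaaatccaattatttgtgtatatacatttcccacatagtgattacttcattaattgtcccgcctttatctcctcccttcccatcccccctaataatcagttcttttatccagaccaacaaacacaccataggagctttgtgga
Mesp1: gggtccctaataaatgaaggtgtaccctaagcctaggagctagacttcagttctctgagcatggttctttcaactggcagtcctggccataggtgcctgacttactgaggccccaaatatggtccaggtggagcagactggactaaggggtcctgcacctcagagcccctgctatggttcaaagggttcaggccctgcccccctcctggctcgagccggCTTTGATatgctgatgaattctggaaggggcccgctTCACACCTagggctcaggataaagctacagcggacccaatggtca
In Sp5, CTTTGATC begins 104 bases before the start. In Mesp1, CTTTGAT begins 31 bases before the start and TCACACCT, the reverse complement of AGGTGTGA, at base 5 after it. Among all 32851 promoters of the table, 0.938% held CTTTGATC, 3.73% CTTTGAT, 1.27% AGGTGTGA, 0.855% AATCCACA, 0.98% AATACACA and 7.06% TAATCC, and 13.1% held at least 1 of them. A match is a string of letters in this window and was not set against binding.

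Definitive endoderm and node genes rose in part: 6 of 19 measured members rose and 1 fell, with a median of 1.20. With the replicate block 3 rose and 1 fell. Cyp26a1, the enzyme that degrades retinoic acid, was at 4 or 5 in every day 4 array and at 1999, 1474, 587, 435 and 510 in replicates 1 to 5 at day 6 (log2 change 6.60, SE 0.64, limma adjusted p = 5.5e-07). Krt19, a keratin of simple epithelia, read 230, 343, 314, 175 and 185 and then 3094, 4348, 2945, 2297 and 2533 (log2 change 3.60, SE 0.28, limma adjusted p = 4.1e-08), and was nearly even over the replicates. Gata6, a zinc finger factor of endoderm and early mesoderm, went from 7 or 8 to 379, 416, 47, 39 and 63 (log2 change 3.38, SE 0.50, limma adjusted p = 6.3e-05).

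The other calls of this list rested on few arrays or were lost with the block. Cxcr4, the chemokine receptor of definitive endoderm and mesoderm, was at 7 or 8 at day 4 and at 817, 710, 39, 19 and 40 at day 6 (log2 change 3.35, limma adjusted p = 0.0174, and 0.128 with the replicate block). Its call was lost without replicate 1 of day 6 (limma adjusted p = 0.055) or replicate 2 of day 6 (0.0637). Noggin (Nog), a secreted BMP antagonist, went from 3 in every array to 35, 39, 7, 21 and 9 (log2 change 1.70, limma adjusted p = 0.0005, and 0.0589 with the block). Fgf17, a streak ligand, ran the other way over the replicates, from 17, 19, 36, 26 and 18 to 19, 34, 134, 139 and 87 (log2 change 1.39, limma adjusted p = 0.0211, and 0.0976 with the block). That call was lost without any of day 4 replicates 1 or 5 (limma adjusted p = 0.0505 and 0.0521) or day 6 replicates 3, 4 or 5 (0.0708, 0.07 and 0.0545). Shh, a ligand of the node and notochord, fell by 0.65 on the log2 scale (limma adjusted p = 0.0166, and 0.0647 with the block), from 33 to 56 at day 4 to 17 to 31 at day 6. Its call was lost without replicate 4 of day 4 (limma adjusted p = 0.059) or replicate 2 of day 6 (0.0596).

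The classic endoderm factors were seen mainly in 2 of the 5 day 6 arrays. Foxa2, a forkhead factor of node and endoderm, was at 4 or 5 in every day 4 array and at 67, 283, 4, 9 and 4 in replicates 1 to 5 at day 6 (log2 change 1.77, SE 0.68, limma adjusted p = 0.0977). It passed when replicate 3 of day 6 (limma adjusted p = 0.0358) or replicate 5 of day 6 (0.0345) was left out. Sox17, which specifies endoderm, was at 5 to 9 at day 4 and at 49, 138, 8, 8 and 8 at day 6 (limma adjusted p = 0.13). Gata4 showed the same pattern, at 149, 138, 16, 10 and 13 at day 6 (limma adjusted p = 0.0814; 0.0266 and 0.0402 without replicate 4 or 5 of day 6), as did the secreted antagonist Cer1 at 56, 22, 7, 7 and 7 (limma adjusted p = 0.345). Foxa1 stood out in replicate 2 alone, at 123 against 7 to 13 in the other day 6 arrays. Hhex had its highest day 6 value, 32, in the same array. The Wnt antagonist Dkk1 was above its day 4 value of 4 in every array, at 139, 121, 10, 5 and 5, but did not pass (limma adjusted p = 0.107); without replicate 4 or replicate 5 of day 6 it did (limma adjusted p = 0.0497 and 0.0499). Chrd and Pyy stayed under 10. Trh and Ripk4, at 268 to 853 and 237 to 388 at day 4, did not pass either.

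Aplnr, the receptor of migrating mesoderm, and its ligand Apln rose, and the ligand Apela fell. Aplnr was at 4 in all 5 day 4 arrays and at 2036, 1081, 178, 129 and 176 in replicates 1 to 5 at day 6 (log2 change 5.63, SE 0.76, limma adjusted p = 2.5e-05). Apln, a ligand, went from 12 to 16 to 221, 57, 45, 45 and 51 (log2 change 2.00, limma adjusted p = 0.00048, and 0.0536 with the block). Apela, the earlier embryonic ligand, read 2794, 3699, 5122, 4715 and 4834 at day 4 and 1274, 851, 2838, 3426 and 3187 at day 6, and the groups overlapped. It fell by 1.03 on the log2 scale (limma adjusted p = 0.0336, and 0.09 with the block). The Apela call was lost without any of day 4 replicates 3, 4 or 5 (limma adjusted p = 0.0814, 0.0754 and 0.0788) or day 6 replicates 1 or 2 (0.0945 and 0.109). In Fl/Fl cells Apela had already dropped to 34 and 83 at day 6.

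**Figure D2:**
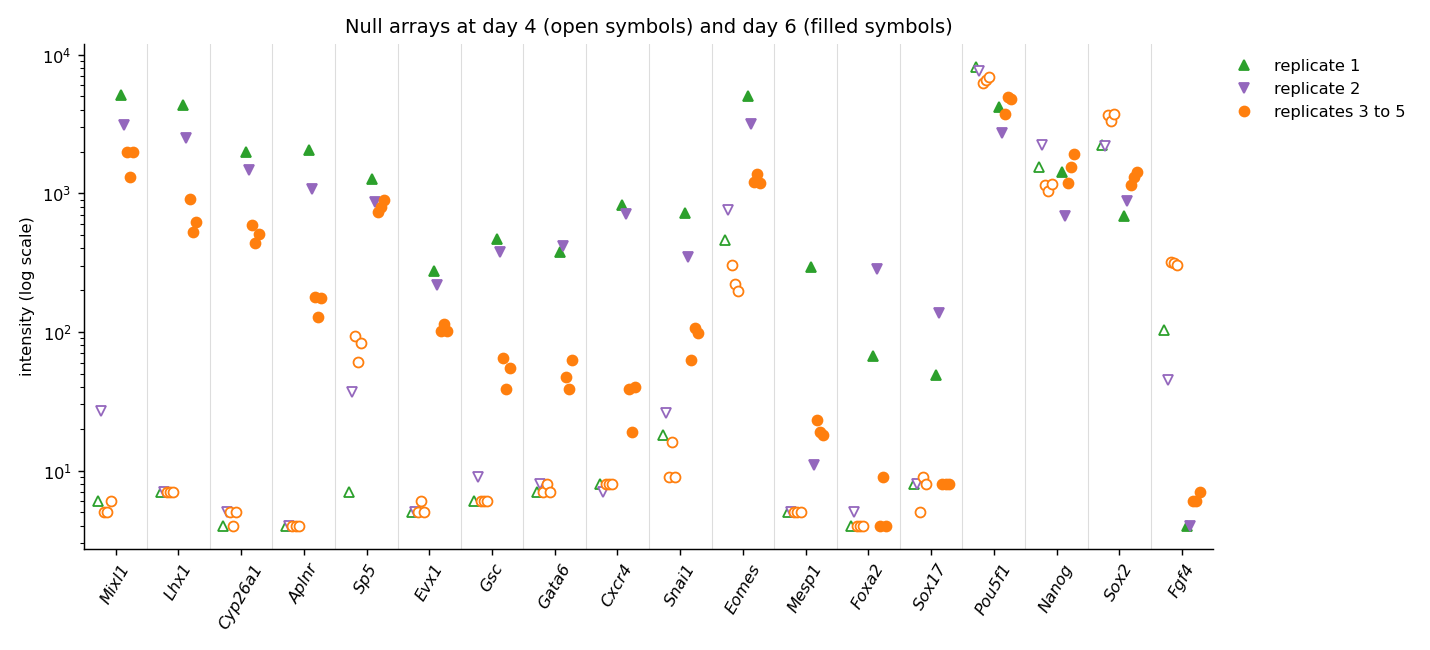
Intensity (log scale) of 18 genes in each null array, open symbols for day 4 and filled symbols for day 6, with the symbol shape giving the replicate. Replicates 1 and 2 lie above replicates 3 to 5 at day 6 for Lhx1, Cyp26a1, Aplnr, Gsc, Gata6, Cxcr4 and Snai1, and Foxa2 and Sox17 leave the floor mainly in those same replicates, while Pou5f1 stays at 2737 or more in all 10 arrays.

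The size of the rise was not the same in all replicates. Over replicates 3 to 5 alone, where Eif2s3y was high, the mean log2 change was 5.93 for Lhx1, 5.88 for Cyp26a1, 4.35 for Aplnr and 2.48 for Gsc. In replicate 1 the same changes were 8.63, 7.97, 7.99 and 5.57, and in replicate 2 they were 7.82, 7.36, 7.08 and 4.87. Mixl1 changed by 7.54 in replicates 3 to 5, 9.0 in replicate 1 and 6.64 in replicate 2, and Eomes by 2.38, 3.44 and 2.06. With replicates 3 to 5 only at both days, 8 of the 18 streak factors still rose, all of the 9 but Cdx2. The difference between the replicates was not tested, and the part of the actin ratio or Meg3 in it was not tested.

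Nodal and its co-receptor were expressed at both days. Nodal itself read 1397 to 2655 at day 4 and 2331 to 3047 at day 6 (log2 change 0.30, limma adjusted p = 0.461), and its co-receptor Tdgf1 7573 to 10919 and 9720 to 12530 (limma adjusted p = 0.95). Of the 22 measured genes of this pathway 6 rose and 3 fell. Lefty2, a feedback inhibitor of Nodal, read 197, 259, 146, 223 and 148 and then 966, 687, 563, 525 and 433 (log2 change 1.67, limma adjusted p = 0.00083). Pmepa1, a Smad-induced feedback gene, rose from 261 ± 43.2 to 649 ± 117 (SD, n = 5 each, limma adjusted p = 3.2e-05), and follistatin (Fst), an activin antagonist, rose by 2.56 (limma adjusted p = 0.0031). Not all feedback genes rose: Smad7 fell (log2 change -0.76, limma adjusted p = 0.0171) and Lefty1 did not pass (log2 change 0.10). Gdf3, a Nodal-related ligand of pluripotent cells, fell by 1.83 (limma adjusted p = 0.00036) and Skil, a Smad repressor, by 0.54 (limma adjusted p = 2.2e-06).

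Wnt genes rose more often than they fell, 12 against 1 of 34 measured, and 9 against 1 with the replicate block. Wnt3, the ligand needed for the streak, went from 37 to 85 at day 4 to 199 to 623 at day 6 (log2 change 2.57, limma adjusted p = 7.1e-05). Axin2, a general target of the pathway, rose by 1.96 (limma adjusted p = 2.5e-05), and Wls, the Wnt secretion receptor, by 2.41, from 90, 161, 157, 110 and 109 to 568, 931, 654, 642 and 601 (limma adjusted p = 2.6e-06). Frzb, a secreted Wnt antagonist, rose from 9 to 19 to 388, 317, 88, 101 and 155 (log2 change 3.53, limma adjusted p = 1e-05). Sfrp2, another secreted antagonist, fell from 154 to 220 to between 28 and 64 (log2 change -1.97, limma adjusted p = 1.4e-06).

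Among the BMP genes, 7 of 20 rose and 0 fell; with the replicate block 4 rose. Bmp4, the ligand that induces posterior mesoderm, read 10, 17, 34, 9 and 9 in replicates 1 to 5 at day 4 and 328, 646, 135, 112 and 112 at day 6 (log2 change 3.54, SE 0.44, limma adjusted p = 9.1e-06). Its signal transducer Smad1 rose from 468 ± 43.2 to 1422 ± 535 (SD, n = 5 each, limma adjusted p = 4.2e-05) and Twsg1, a modulator of BMP binding, by 1.24 (limma adjusted p = 5.6e-05). The BMP target Msx2 went from 7 to 9 to 90, 126, 14, 36 and 15 (limma adjusted p = 0.0018, and 0.116 with the block). Id1, a direct BMP target, read 450 to 2652 at day 4 and 724 to 1707 at day 6 (log2 change -0.00, limma adjusted p = 1).

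Among the FGF ligands, Fgf4 fell and Fgf8 rose. Fgf4, the autocrine ligand of ES cells, read 103, 45, 320, 312 and 304 in replicates 1 to 5 at day 4 and 4, 4, 6, 6 and 7 at day 6, the largest fall among the named genes (log2 change -4.23, SE 0.38, limma adjusted p = 2.3e-07). Fgf8, the ligand of the streak, read 36, 62, 12, 12 and 12 and then 665, 511, 279, 272 and 249 (log2 change 3.85, SE 0.48, limma adjusted p = 9.4e-06). At day 4 the replicates with the lowest Fgf4, 1 and 2, had the highest Fgf8. Dusp4, a phosphatase induced by ERK signalling, rose by 3.06 (limma adjusted p = 1.1e-05). Dusp6 and Il17rd of the same list also rose (log2 change 0.60 and 0.67, limma adjusted p = 0.0286 and 0.0017), whereas Etv5 fell (-0.62, limma adjusted p = 0.0038). Spry1, Spry2, Spry4 and Etv4 were among those that did not pass (log2 change -0.03, -0.34, -0.18 and 0.11). In all, 7 of the 23 FGF genes rose and 3 fell, and with the replicate block 6 rose and 3 fell.

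Pou5f1 was still high when these genes came on. Its intensity was 8154, 7584, 6254, 6556 and 6950 in null replicates 1 to 5 at day 4 and 4197, 2737, 3756, 4981 and 4795 at day 6. The groups did not overlap, and day 6 was 1.76-fold lower (log2 change -0.82, SE 0.24, limma adjusted p = 0.0251). The exact permutation test of the 5 against 5 arrays (two-sided) gave p = 0.00794, the smallest it allows, and it ignores the replicate numbers here too. The limma call was lost with the replicate number as a block (adjusted p = 0.0546) and in the arrays with high Eif2s3y alone (log2 change -0.56, adjusted p = 0.35). It was also lost without replicate 1 of day 4 (limma adjusted p = 0.0586), replicate 2 of day 6 (0.0847) or replicate 3 of day 6 (0.0538).

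The level of Pou5f1 at null day 6 was set against Fl/Fl cells at the day their own Mixl1 appeared. Fl/Fl cells had 4243 and 4592 at day 4, and null day 6 differed from that by -0.14 on the log2 scale (SE 0.32, limma adjusted p = 1), which leaves room for a difference of either sign. At day 6 Fl/Fl cells had 384 and 494, and null cells were 3.19 higher (SE 0.32, limma adjusted p = 8.8e-07), in 5 of 5 null arrays. Between days 4 and 6 the Pou5f1 change in null cells was less negative than in Fl/Fl cells by 2.51 (SE 0.45, limma adjusted p = 0.0023).

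Nanog read 1560, 2212, 1153, 1037 and 1169 in null replicates 1 to 5 at day 4 and 1418, 684, 1182, 1551 and 1928 at day 6 (log2 change -0.10, SE 0.32, limma adjusted p = 1); it was lower at day 6 in replicates 1 and 2 and higher in the other three. In Fl/Fl cells Nanog went from 1261 and 1435 to 160 and 209 over the same days, and the difference between the changes was 2.75 (SE 0.60, limma adjusted p = 0.0128). That call was lost without replicate 2 of Fl/Fl day 4 (limma adjusted p = 0.068) or replicate 1 of Fl/Fl day 6 (0.0933). Sox2 read 2218, 2182, 3662, 3309 and 3732 and then 689, 883, 1150, 1321 and 1428 in null cells, a fall of 1.47 on the log2 scale (SE 0.22, limma adjusted p = 6.9e-05) that was 1.30 to 1.68 in size in each of the 3 kinds of replicate. Zfp42 (Rex1), a marker of naive ES cells, fell by 1.88 (limma adjusted p = 3.1e-05), from 58, 51, 142, 142 and 156 to 27, 21, 26, 17 and 31. Esrrb and Klf4, naive factors, were already at 8 to 15 and 6 to 23 at day 4 and did not pass (limma adjusted p = 0.0511 and 1); Esrrb passed as a fall without replicate 2 of day 4 (0.0342) or replicate 4 of day 6 (0.0112).

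Of the 37 measured genes of core and naive pluripotency, 16 fell and 5 rose, and the median log2 change was -0.63. With the replicate block 13 fell and 6 rose. The falls with the largest size after Fgf4 were those of Dppa5a, an RNA-binding protein of ES cells, from 2474, 1567, 6641, 6666 and 6144 to 179, 147, 750, 1058 and 948 (log2 change -3.12, limma adjusted p = 0.00012), Utf1 (-2.80, limma adjusted p = 9.7e-06) and Dnmt3l, a cofactor of DNA methyltransferases (-3.80, limma adjusted p = 0.0045). Tet1, which oxidises methylcytosine, fell by 1.37 (limma adjusted p = 4.7e-06). The 5 that rose were Stat3 (1.41, limma adjusted p = 1.5e-06), Il6st (1.82, limma adjusted p = 4.2e-05), Socs3, Klf5 (1.05, limma adjusted p = 0.00022) and Tfcp2l1 (1.64, limma adjusted p = 0.0015). Stat3, Il6st and Socs3 belong to the LIF receptor pathway, and Klf5 is also a factor of epithelia.

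Of 22 genes of the formative and primed epiblast 9 fell, 2 rose and 11 did not pass, with a median of -0.58. Dnmt3b, a de novo DNA methyltransferase, read 10553, 10167, 8377, 8412 and 9629 at day 4 and 5025, 4412, 2349, 3003 and 3110 at day 6 (log2 change -1.44, SE 0.27, limma adjusted p = 0.00077). Sox3, a SoxB1 factor, fell by 2.09 (limma adjusted p = 1.8e-06), Sall2 by 2.02 (limma adjusted p = 2.7e-07) and Foxd3 by 1.43 (limma adjusted p = 1.5e-07). Fgf5, the standard epiblast marker, did not pass, at 630 to 824 and then 378 to 1002 (log2 change -0.19, SE 0.39, limma adjusted p = 0.932). Otx2 read 2332, 2051, 1053, 1259 and 1286 and then 1891, 1515, 654, 968 and 905; it was lower at day 6 in every replicate, which passed only with the block (log2 change -0.46, limma adjusted p = 0.56, and 0.0172 with the block). Otx2 at null day 6 was above Fl/Fl day 4 (152 and 288) by 2.38 (limma adjusted p = 0.0282).

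In the list of adhesion and epithelial to mesenchymal transition, 12 of 27 genes rose, 2 fell and 13 did not pass. The 2 that fell were Epcam, an epithelial adhesion molecule (log2 change -0.44, limma adjusted p = 0.0027), and Esrp1, an epithelial splicing factor (-0.58, limma adjusted p = 0.0263). Fibronectin (Fn1), the matrix on which mesoderm migrates, read 1001, 1431, 1245, 1093 and 1017 at day 4 and 13343, 14078, 7610, 6010 and 5878 at day 6 (log2 change 2.92, SE 0.20, limma adjusted p = 8.4e-09). N-cadherin (Cdh2) rose by 2.85 (limma adjusted p = 1e-05) and vimentin (Vim) by 1.88 (limma adjusted p = 0.0011). E-cadherin (Cdh1) read 5125 to 7041 and then 5535 to 8477 and did not pass (log2 change 0.36, limma adjusted p = 0.0861), nor did the junction genes Cldn6, Cldn7, Ocln and Crb3 (limma adjusted p = 1, 0.305, 0.879 and 0.483). The simple-epithelial keratin Krt8 rose from 1223, 2029, 1262, 988 and 805 to 9065, 17702, 11360, 8638 and 9037 (log2 change 3.16, limma adjusted p = 1.2e-06), with its partner Krt18 (2.62, limma adjusted p = 3.6e-06) and desmoplakin (Dsp, 3.09, limma adjusted p = 6.2e-06). Zeb1, Snai2 and Twist1, later mesenchymal factors, did not pass (limma adjusted p = 1, 0.944 and 0.488).

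Genes of mesoderm beyond the streak rose in part. Of 33 cardiac, vascular and blood genes 7 rose (21.2%, against 6.8% of all genes) and 1 fell (3.03%, against 6.16%). With the block 2 rose, and 20 of the 33 stayed under 20 in all 10 arrays. Kdr, the VEGF receptor of early vascular mesoderm, went from 8 to 13 to 380, 304, 62, 27 and 48 (log2 change 2.78, limma adjusted p = 0.0003, and 0.0659 with the block). Tbx20, a cardiac T-box factor, rose from 9 to 15 to 42, 92, 50, 25 and 30 (limma adjusted p = 4.6e-05) and Flt1, another VEGF receptor, from 17 to 60 to between 68 and 153 (limma adjusted p = 0.00061). Cardiac actin (Actc1) rose by 2.26 (limma adjusted p = 0.00033, and 0.0763 with the block). Pdgfra, Rgs5 and Lmo2 rose by 2.86, 2.16 and 0.88 (limma adjusted p = 0.0089, 0.0165 and 0.0036). Tal1, Cdh5, Pecam1 and Nkx2-5, which define blood, endothelium and heart, were at 3 to 7 in all 10 arrays. Of 33 Hox genes 0 passed with limma in either direction, also with the block, and 29 stayed under 20; at an unadjusted p under 0.05, 1 was higher and 0 were lower.

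**Figure D3:**
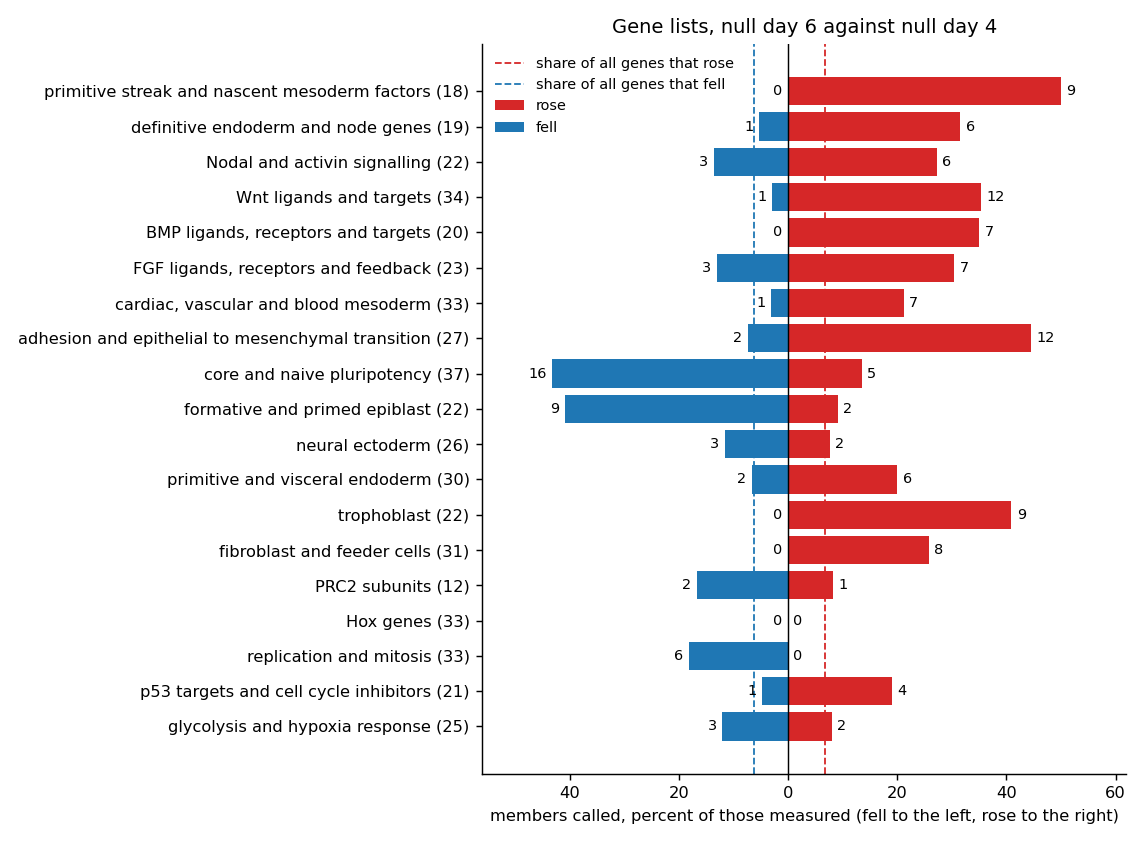
Share of measured members that rose (red, right) or fell (blue, left) between null day 4 and day 6 for the 19 gene lists with at least 12 measured members (number in brackets), with the number of genes at the end of each bar and dashed lines at the shares over all genes, 6.8% and 6.16%. The streak factors have 9 rises and no fall among 18, and the pluripotency genes have 16 falls among 37.

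Markers of other cell types were counted in the same way. Of 22 trophoblast genes 9 rose and 0 fell, and with the replicate block 7 rose and 0 fell. Their summed level went from between 3318 and 7087 at day 4 to between 21957 and 45013 at day 6. Most of that sum came from Krt8, Krt18, Krt19 and Cited2, with day 6 means of 11160, 9564, 3043 and 3157. Tfap2c, Ets2 and Cdx2 had day 6 means of 149, 147 and 20.4, and Hand1 and Tpbpa did not pass (limma adjusted p = 0.536 and 0.647). The 9 that rose were Cdx2, Krt8, Krt18 and Krt19, which other lists here also hold, and Tfap2a, Tfap2c, Ets2, Peg10 and Cited2. Tfap2c and Ets2, transcription factors of trophoblast, rose by 1.31 and 1.35 (limma adjusted p = 0.00075 and 0.0041), Tfap2a by 0.67 (limma adjusted p = 0.0367) and the imprinted gene Peg10 by 1.85 (limma adjusted p = 0.0071). Elf5, Gata3, Plac1 and Psg17 were at 4 to 10 in all 10 arrays. Of 31 fibroblast and feeder genes 8 rose and 0 fell (summed level 8085 to 13486 and then 18301 to 33495), among them Col5a1, S100a6, Anxa1 and Tagln, which rose by 2.84, 2.51, 3.09 and 1.39 (limma adjusted p = 3.7e-06, 6.7e-05, 7.8e-05 and 0.00089). The other 4 were Acta2 (3.30, limma adjusted p = 0.0013), Cav1 (2.35, limma adjusted p = 0.0055), Thbs1 (2.23, limma adjusted p = 0.0106) and Ccn1 (1.07, limma adjusted p = 0.0088). Col1a1 and Pdgfrb read 10 to 35 and 9 to 22 at day 4 and 39 to 82 and 19 to 63 at day 6 and did not pass (limma adjusted p = 0.0849 and 0.0638), and Postn, Fap, Col6a3 and Lum were at 4 to 9 in all 10 arrays. Of 30 primitive and visceral endoderm genes 6 rose and 2 fell, and with the block 6 rose and 1 fell (summed level 9234 to 10046 and then 12846 to 18257). The 6 included Gata6 (3.38, limma adjusted p = 6.3e-05), which the endoderm list also holds, and Pdgfra (2.86, limma adjusted p = 0.0089). The others were Cited1 (2.58, limma adjusted p = 7e-07), Col4a1 (1.99, limma adjusted p = 5.6e-06), Col4a2 (2.90, limma adjusted p = 0.00035) and Sparc (0.65, limma adjusted p = 0.011). Afp, Ttr and Hnf4a, which define visceral endoderm, stayed at 9 to 11. Of 26 neural genes 2 rose (7.69%, against 6.8% of all genes) and 3 fell (11.5%, against 6.16%), and with the block 0 rose and 1 fell (summed level 809 to 1212 and then 792 to 1466), and Sox1 stayed at 9 to 16. Their part in the other results was not tested beyond these levels.

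Neuronal tubulin (Tubb3) fell from 172, 98, 116, 108 and 102 to 19, 19, 22, 29 and 41 (log2 change -2.06, limma adjusted p = 3.8e-06). Nestin (Nes) read 381, 476, 265, 166 and 213 and then 458, 448, 669, 1005 and 811 (limma adjusted p = 0.0059, and 0.197 with the block), Pax6 fell by 0.59 from at most 23 (limma adjusted p = 0.0182, and 0.255 with the block), and Ncam1 rose by 0.64 to at most 22 (limma adjusted p = 0.02, 0.0514 with the block, and 0.0716 without replicate 2 of day 6). Of 33 replication and mitosis genes 6 fell and 0 rose, and with the block 12 fell. Cyclin E1 (Ccne1) fell by 1.12 (limma adjusted p = 0.001), the licensing factor Cdt1 by 0.85 (limma adjusted p = 0.0028) and the helicase subunit Mcm2 by 0.63 (limma adjusted p = 0.002). In the p53 and cell cycle inhibitor list 4 of 21 rose and 1 fell, with the block 2 and 1. Cdkn1a (p21) read 199, 271, 715, 631 and 658 and then 787, 1348, 1090, 1100 and 1066 (limma adjusted p = 0.0051, and 0.0864 with the block), and the proapoptotic gene Bbc3 (Puma) fell by 0.97 (limma adjusted p = 0.0038). Among 25 genes of glycolysis and hypoxia 2 rose (8%, against 6.8% of all genes) and 3 fell (12%, against 6.16%), and with the block 1 rose and 8 fell. Pdk1, which diverts pyruvate from the mitochondria, fell by 1.72 (limma adjusted p = 0.00013), and the glucose transporter Slc2a3 rose by 0.62 (limma adjusted p = 2.5e-05, and 0.0742 with the mean of its probe sets).

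Of 12 measured PRC2 subunits, Jarid2 itself among them, 1 rose (8.33%, against 6.8% of all genes) and 2 fell (16.7%, against 6.16%). Rbbp7, a histone-binding subunit, read 8786 to 10925 and then 12997 to 13492 (log2 change 0.47, limma adjusted p = 5.6e-06). Eed, which reads the methyl mark, fell by 0.44 (limma adjusted p = 0.0054, and 0.0683 in the fit of the 10 arrays alone), and Epop, an accessory subunit, fell by 0.50 (limma adjusted p = 0.0401). The Epop call was lost on leaving out any of these 10 arrays except replicate 2 of day 4 (limma adjusted p = 0.0521 to 0.0936). Ezh2, the catalytic subunit, and Suz12 had log2 changes of 0.01 and -0.00 (limma adjusted p = 1 for both).

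The 10 largest rises among named gene models with no overlap between the days were Mixl1, Lhx1, Cyp26a1, Aplnr, Lgals3, Pcdh7, Acta1, Csf1, Sp5 and Evx1. Galectin-3 (Lgals3) read 20, 85, 67, 65 and 56 and then 889, 1577, 1623, 1163 and 1051 (log2 change 4.42, SE 0.35, limma adjusted p = 5.7e-08). Pcdh7, a protocadherin, went from 7 to 11 to 560, 391, 187, 155 and 154 (log2 change 4.37, limma adjusted p = 8.4e-09). Skeletal actin (Acta1) and the macrophage growth factor Csf1 rose by 4.36 and 4.32 (limma adjusted p = 1.4e-05 and 1.8e-06). For Acta1 and Csf1 the rise was larger in replicates 3 to 5 (5.06 and 5.03) than in replicate 1 (3.33 and 3.70) or replicate 2 (3.31 and 2.78), the reverse of Lhx1, Cyp26a1 and Aplnr. This difference was not tested.

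The 10 largest falls, again among named gene models with no overlap between the days, were Fgf4, Cbr3, Spon1, Pla2g1b, Slc27a2, Dppa5a, Ugt8a, Slc6a15, Platr10 and Utf1. Cbr3, a carbonyl reductase, read 275, 143, 212, 278 and 340 and then 19, 9, 9, 32 and 18 (log2 change -3.62, SE 0.32, limma adjusted p = 1.7e-07). Spon1, a secreted matrix protein of the floor plate, read 317, 176, 178, 214 and 168 and then 22, 13, 10, 13 and 10 (log2 change -3.61, SE 0.20, limma adjusted p = 1e-09), with changes between -3.67 and -3.40 in the 3 kinds of replicate. Slc27a2, a fatty acid transporter, fell by 3.13 (limma adjusted p = 1.1e-05), Ugt8a, a galactosyltransferase of myelin lipids, by 3.03 (limma adjusted p = 4.3e-09), Slc6a15, an amino acid transporter, by 2.96 (limma adjusted p = 1e-07), and Platr10, a noncoding RNA of ES cells, by 2.83 (limma adjusted p = 4.7e-06). Pla2g1b, a phospholipase, fell by 3.34 (limma adjusted p = 4.4e-06) and stayed at 34 in replicate 5 of day 6 against 5 to 7 in the others.

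The null interval was set beside the Fl/Fl interval in which Mixl1 appeared, day 2 to day 4, with which it shares no arrays. Across the 18194 genes the changes correlated at r = 0.82, a description over genes that are not independent. Fl/Fl cells had 1837 genes past the test (10.1%), 933 higher (5.13%) and 904 lower (4.97%). In all, 1208 genes passed in the same direction in both intervals, 51.2% of the null calls and 65.8% of the Fl/Fl calls, against 1 in opposite directions. The difference between the changes passed the test for 39 genes (0.214%), 17 positive (0.0934%) and 22 negative (0.121%). This count was 25 without replicate 3 of null day 4, 65 and 154 without replicate 1 or 2 of Fl/Fl day 2, and 95 without replicate 2 of Fl/Fl day 4. The streak factors were not among the 39: the difference was -0.17 for Mixl1 (SE 1.13), 1.73 for Lhx1 (SE 1.42), -0.98 for Eomes (SE 1.05) and -1.98 for Sp5 (SE 0.80), with limma adjusted p of 1, 1, 1 and 0.622. Such errors leave room for differences of several-fold in either direction. Both intervals were picked with the onset of Mixl1 in them known, so its small difference follows from that choice. Pou5f1 changed by -0.82 in null cells and -0.79 in Fl/Fl cells (difference -0.03, SE 0.45, limma adjusted p = 1).

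Among the 39, the 6 largest positive differences were those of Gtsf1l, Esrrb, Ooep, Ifitm1, Tfap2c and Cebpd. Gtsf1l, Esrrb, Ooep and Cebpd were on in Fl/Fl cells at day 2, at 145 and 149, 211 and 276, 181 and 232, and 54 and 58, and at or near the floor at Fl/Fl day 4, whereas in null cells they were at most 46 at day 4. Ooep, a maternal-effect gene, differed by 3.24 (limma adjusted p = 0.0202), a call lost without replicate 1 of Fl/Fl day 4 (0.0726). Without that array those of Esrrb (difference 2.76, limma adjusted p = 0.008 and then 0.0716), Ifitm1 (2.51, limma adjusted p = 0.0202 and then 0.0726) and Tfap2c (2.40, limma adjusted p = 0.0253 and then 0.102) were lost as well. The Ifitm1 call was also lost without replicate 1 of Fl/Fl day 2 (0.0511), and that of Tfap2c without replicate 3 of null day 4 (0.05) or replicate 2 of Fl/Fl day 2 (0.0506). The Esrrb call was also lost with the mean of its probe sets (0.0587). Ifitm1, an interferon-induced membrane protein, rose in null cells from 549, 628, 874, 935 and 846 to 4923, 4629, 2754, 2551 and 2972 while Fl/Fl cells had 3985 and 4161 at day 2 and 3099 and 3420 at day 4.

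The 6 largest negative differences were those of Tnfsf9, Ghr, Nefl, Rgs17, Fry and Ppp2r2c, which Fl/Fl cells gained between days 2 and 4 and null cells gained less or not at all. Tnfsf9, a ligand of the TNF family, reached 199 and 244 in Fl/Fl cells at day 4 but 20, 50, 18, 8 and 12 in null cells at day 6 (difference -3.31, SE 0.52, limma adjusted p = 0.0038). Ppp2r2c, a phosphatase subunit, was at 128 and 100 in Fl/Fl day 4 and at 17 to 20 in null day 6 (difference -2.46, SE 0.18, limma adjusted p = 8.6e-08). Rgs17, a regulator of G protein signalling, was at 130 and 105 and at 11 to 20 (difference -2.73, SE 0.22, limma adjusted p = 2.7e-07). Ghr, the growth hormone receptor, rose in both, to 769 and 709 in Fl/Fl cells and to 259, 323, 280, 305 and 367 in null cells (difference -2.90, limma adjusted p = 0.00049). The Ghr call was lost with the mean of its probe sets (limma adjusted p = 0.0587). Nefl, a neurofilament subunit, was high in null cells at both days (907 to 2293), whereas Fl/Fl cells went from 653 and 699 to 3619 and 3897 (difference -2.81, limma adjusted p = 0.0043). The call of Fry, a scaffold protein (difference -2.49, limma adjusted p = 0.0335), was lost on leaving out any of 8 arrays, most of all replicate 2 of Fl/Fl day 4 (limma adjusted p = 0.104), replicate 1 of Fl/Fl day 2 (0.0887) and replicate 1 of Fl/Fl day 4 (0.0679). The others were replicates 2 and 3 of null day 4 (0.0566 and 0.0501) and replicates 1, 2 and 4 of null day 6 (0.0559, 0.0508 and 0.0541). The Fry call was also lost with a pseudocount of 1 (0.0783).

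**Figure D4:**
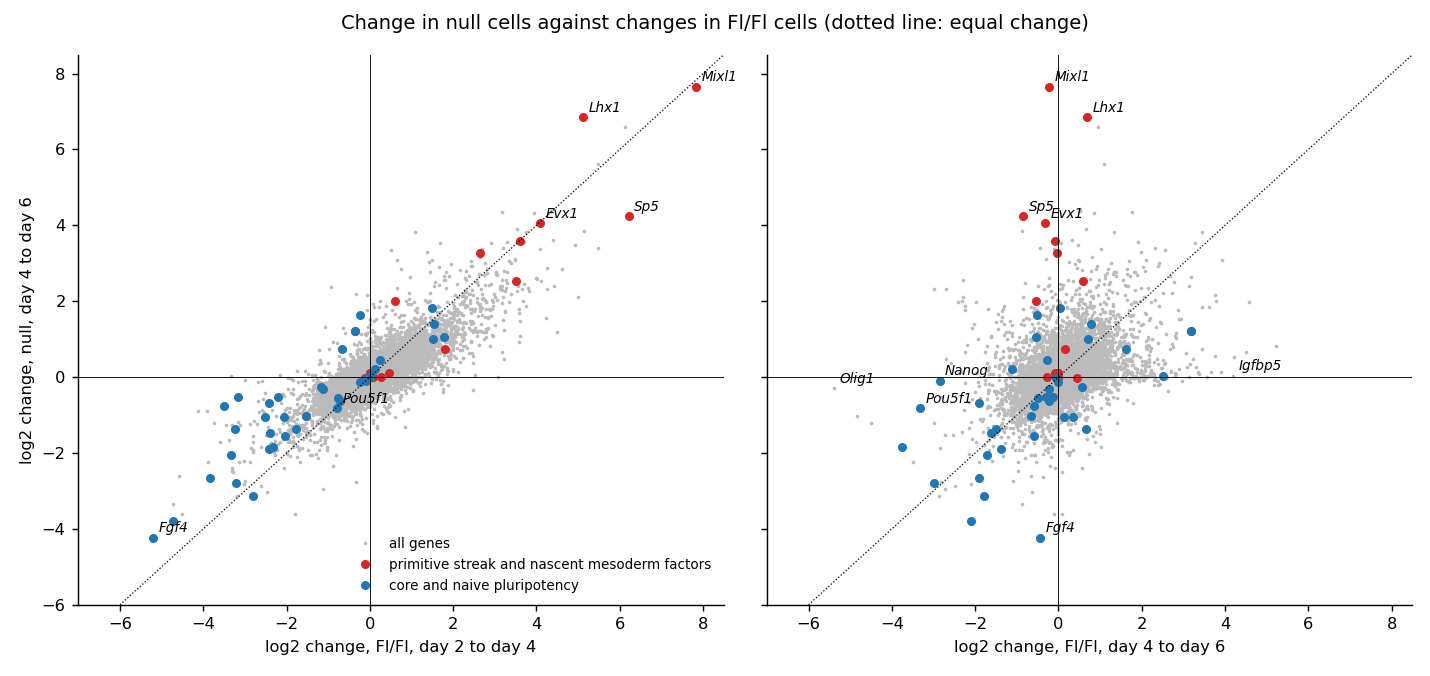
Log2 change of every gene (grey) in null cells from day 4 to day 6 against that in Fl/Fl cells from day 2 to day 4 (left) and from day 4 to day 6 (right), with streak factors in red, pluripotency genes in blue and a dotted line at equal change. Mixl1 lies near the line on the left and near 0 of the Fl/Fl axis on the right, and Pou5f1 moves by -0.82 in null cells against -0.79 on the left and -3.33 on the right.

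On the same calendar days, day 4 to day 6, the changes in null and Fl/Fl arrays were less alike. Most of these null arrays also differ from the Fl/Fl arrays in Eif2s3y, Meg3 and actin ratio. The correlation across genes was 0.433, 629 genes passed in Fl/Fl cells (3.46%), 337 higher (1.85%) and 292 lower (1.6%), and 227 passed in the same direction in both (9.63% of the null and 36.1% of the Fl/Fl calls) against 38 in opposite directions. The difference between the changes passed for 378 genes (2.08%), 216 positive (1.19%) and 162 negative (0.89%). Mixl1 headed the positive differences (7.87, SE 1.13, limma adjusted p = 0.00032), followed by Lhx1 (6.17, SE 1.42, limma adjusted p = 0.0204), Cyp26a1 (5.63, SE 1.20, limma adjusted p = 0.0109), Nt5e, Olig1 and Sp5 (5.08, SE 0.80, limma adjusted p = 0.00075). The Lhx1 call was lost without any of the 4 Fl/Fl arrays of days 4 and 6 (limma adjusted p = 0.0625, 0.0993, 0.0629 and 0.124), and that of Cyp26a1 without replicate 2 of Fl/Fl day 4 (0.0626) or replicate 1 or 2 of Fl/Fl day 6 (0.052 and 0.0585). Evx1 also differed (4.37, limma adjusted p = 0.00028), so that 4 of the 18 streak factors passed. The null interval was picked with the late onset of streak genes in it known. These differences are therefore not independent evidence of that onset.

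Olig1, a bHLH factor of the neural lineage, was at 242 to 457 in null day 4 and 135 to 349 in null day 6, with no call of its own (limma adjusted p = 0.552), whereas its mean in Fl/Fl cells went from 309 to 3.5 (difference 5.09, limma adjusted p = 3.4e-07). Nt5e, an ectonucleotidase, rose in null cells from 27, 60, 190, 173 and 133 to 158, 359, 843, 779 and 775, while its Fl/Fl mean went from 581 to 70.5 (difference 5.31, limma adjusted p = 0.0017). The 6 largest negative differences were those of Tnc, Igfbp5, Runx1, Fgf4, Cd248 and Spon1. Tnc (tenascin C), Igfbp5, Runx1 and Cd248, genes of stroma and of blood, reached Fl/Fl means of 871, 143, 345 and 282 at day 6 but did not pass in null cells, where day 6 arrays read at most 44, 5, 59 and 19 (differences -4.40, -4.16, -3.83 and -3.69, limma adjusted p = 4.1e-05, 1.8e-12, 0.0013 and 3.1e-05). Without replicate 1 of null day 6, Tnc passed as a rise (limma adjusted p = 0.014). Fgf4 and Spon1 were already near the floor in Fl/Fl cells at day 4 and fell in null cells (differences -3.80 and -3.70, limma adjusted p = 0.0038 and 4.5e-06).

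The levels at null day 6 were also set beside those of Fl/Fl cells. Null day 6 and Fl/Fl day 4 differed in 86 genes (0.473%), 15 higher (0.0824%) and 71 lower (0.39%) in null. Null day 6 and Fl/Fl day 6 differed in 1806 (9.93%), 631 higher (3.47%) and 1175 lower (6.46%). Mixl1 was at 2701 ± 1500 (SD, n = 5) in null day 6 and at a mean of 2037 in Fl/Fl day 4 (difference 0.25, SE 0.80, limma adjusted p = 1). Sox2 was at 1094 ± 306 (SD, n = 5) against 639 in Fl/Fl day 4 (difference 0.72, limma adjusted p = 0.38) and 207 in Fl/Fl day 6 (2.34, limma adjusted p = 1.9e-05). Nanog was at 1353 ± 461 (SD, n = 5) against 1348 (difference -0.07, SE 0.42, limma adjusted p = 1) and 185 (2.78, limma adjusted p = 0.0002). Noggin, at 22.2 ± 14.6 (SD, n = 5), lay below Fl/Fl day 6 (158) by 2.82 (limma adjusted p = 9.6e-05). Cdx2, at 20.4 ± 6.35 (SD, n = 5), lay below Fl/Fl day 6 (57) by 1.26 (limma adjusted p = 0.0023). Bmp4, at 267 ± 231 (SD, n = 5), lay below Fl/Fl day 6 (2904) by 3.79 (limma adjusted p = 0.0002).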

How the data were processed

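RNA of mouse ES cells was measured on 30 Affymetrix arrays, 1 per sample, of which the 10 null arrays of days 4 and 6 are described here. The authors deposited whole-number intensity values, 1 per probe set and array, which their range shows to be unlogged. How they were normalized, background-corrected and summarised is not given in the sources. Of 45101 probe sets, 34958 name 1 gene in the platform annotation, and the probe set with the highest mean over all arrays stood for each of 18194 genes. limma 3.58.1 (R 4.3.3) fitted 1 mean per group to log2(intensity + 4) of all 30 arrays (20 residual degrees of freedom), and its moderated two-sided p-values were Benjamini-Hochberg adjusted over every gene (threshold 0.05). The number of arrays limits the precision. No gene was removed for low signal.

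The members and the 20 gene lists were chosen with earlier results of these data known. Named genes are all measured members of the streak, endoderm and Apela lists with 11 fixed genes, the 10 largest rises and falls without overlap, up to 4 members of each other list by adjusted p, and the 6 largest differences of each sign in both comparisons with Fl/Fl cells, 139 in all. Unnamed gene models were skipped. Other genes were named after their values were seen (Fst, Nodal, Wnt3, Cdh2, Klf5, Dnmt3l, Eif2s3y, Meg3, cell type markers and the like).

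Null replicate numbers were checked as pairs: deviations of same-numbered arrays from their day means correlated at 0.342 to 0.525, other pairs at -0.456 to 0.338, and each array correlated best with its own number. In simulated data on 18194 genes, the comparison of null days 4 and 6 recovered 84% of log2 changes of 1 and 99% of changes of 2, with 8 wrong calls. The differences from the Fl/Fl changes recovered 57% and 88% (day 2 to 4) and 48% and 90% (day 4 to 6). The simulated noise was normal, independent between arrays and not rounded, whereas same-numbered null arrays deviated together. These rates therefore need not hold for the real arrays. Alternatives were another pseudocount (1 or 16), quantile normalization, median centring, a filter on low genes, the mean of all probe sets, leaving out arrays, the 10 arrays alone, the replicate block, and sets by Eif2s3y.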

Additional observations from a re-analysis of the deposited data

Results flagged for a closer look

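Within the 5 arrays of a day, some values of named genes stood far from the other four (Dixon's test at the 95% level). The test picked 37 of 256 groups of 5 (14.5%), where chance gives about 1 in 20, and 24 of the 37 lay under an intensity of 20, where rounding makes ties common. The 13 others were Mixl1 at 27, Csf1 at 63, Col4a1 at 889 and Tfap2c at 78 in replicate 2 of day 4, and Bbc3 at 342 in replicate 5 of day 4. At day 6 they were Mesp1 at 292, Apln at 221 and Tagln at 7951 in replicate 1, Foxa1 at 123, Slc6a15 at 13, Wls at 931 and Runx1 at 59 in replicate 2, and Pla2g1b at 34 in replicate 5. Replicates 1 and 2 thus held 3 and 4 of the 8 day 6 values, and replicate 2 held 4 of the 5 day 4 values.

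The change from day 4 to day 6 differed between null and Fl/Fl cells by limma's test of the difference (adjusted p under 0.05) for 29 of the named genes considered. On the log2 scale the null change was the more positive by 7.87 for Mixl1, 6.17 for Lhx1, 5.63 for Cyp26a1, 5.31 for Nt5e, 5.09 for Olig1, 5.08 for Sp5, 4.40 for Ghr, 4.37 for Evx1, 4.31 for Apln, 3.91 for Lgals3, 3.85 for Pcdh7, 3.81 for Apela, 3.46 for Csf1, 3.41 for Fgf17, 3.27 for Krt19, 3.19 for Rgs17, 2.92 for Fry, 2.75 for Nanog, 2.51 for Pou5f1, 2.28 for Ifitm1 and 0.79 for Ppp2r2c. It was the more negative, with differences of -4.40 for Tnc, -4.16 for Igfbp5, -3.83 for Runx1, -3.80 for Fgf4, -3.70 for Spon1, -3.69 for Cd248, -3.51 for Cbr3 and -2.40 for Ugt8a. For Lhx1, Cyp26a1, Nanog, Csf1, Fgf17 and Ppp2r2c this call was lost on leaving out single arrays, with adjusted p of up to 0.124, 0.0626, 0.0933, 0.189, 0.0829 and 0.208. With the mean of all probe sets of a gene the calls of Pcdh7, Csf1 and Lhx1 were lost (limma adjusted p = 0.21, 0.14 and 0.122). Median centring ended that of Ppp2r2c (limma adjusted p = 0.189).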

How the results depend on the processing

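No gene result that passed the test in the main fit or under the alternative changed direction. Sign changes of genes that passed under neither were not counted. The split of all calls did turn, from more rises to more falls, with median centring, as given above. Pou5f1 lost its call in null cells with the replicate number as a block (-0.82, limma adjusted p = 0.0546) and in the arrays with high Eif2s3y alone (-0.56, adjusted p = 0.35); the cause was not tested. With the block 2500 genes passed, 1694 of them shared with the main 2358. Of the 97 named genes that passed, 20 lost and, among the rest, 2 (Otx2 and Jarid2) gained a call under the block, which changed no other call of a named gene. Besides those given above, the lost calls were Fgf10 (adjusted p = 0.0676), Cdkn2b (0.061), Slc2a1 (0.0828), Tnfsf9 (0.102) and Rgs17 (0.133). Leaving out each array in turn gave 1883 to 2526 genes, 25 to 154 for the difference from the Fl/Fl day 2 to day 4 change, 260 to 441 for that from day 4 to day 6, 9 to 10 streak factors that rose, and log2 changes of 7.38 to 7.99 for Mixl1 and -0.90 to -0.68 for Pou5f1. Pou5f1 at null day 6 then differed from Fl/Fl day 4 by -0.22 to -0.003 and from Fl/Fl day 6 by 3.01 to 3.37. In the fit of the 10 arrays alone, whose spread comes from these arrays only, 14 named genes lost their call. Among them were Eed (limma adjusted p = 0.0683), Nt5e (0.0626), Perp (0.114), Mesp1 (0.154), Cxcr4 (0.0932), Fgf17 (0.168), Apela (0.187) and Msx2 (0.0808). Without single arrays the calls of Mcm4, Perp and Mif were lost as well (adjusted p of up to 0.081, 0.0636 and 0.0508). The small number of arrays, rounding to whole numbers and the floor limit what could be seen for weakly expressed genes.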
